A study of Homo sapiens with 6 samples.

Results

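NT5E encodes CD73, the surface enzyme that turns extracellular AMP into adenosine, and it is described here with 9 other genes that make, break down, carry or sense adenosine. The 10 genes are NT5E, ENTPD1, ENPP1, ADA, ADK, SLC29A1, ADORA1, ADORA2A, ADORA2B and DPP4, and each matched 1 of the 64253 identifiers of a table of RNA-seq read counts. The list was selected on earlier results of the same contrast, the CPM and fold changes of overexpressing against wild type libraries, so those differences are given as a description, without a test. The libraries came from NCI-H1299 cells, an established human lung cancer line that the labels call lung adenocarcinoma, and fell into 2 groups of 3. One group overexpressed MTSS1, a membrane-binding scaffold protein of the actin cytoskeleton, from an mCherry-tagged plasmid, and the other was wild type. All cells were grown in DMEM with fetal bovine serum. Per the labels, the overexpressing cells had also gone through hygromycin selection and sorting by flow cytometry, and HEK293T cells, a human kidney line, are named in connection with the transfection. They name no library from cells with a control plasmid, so effects of MTSS1, plasmid, selection and sorting cannot be told apart.

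Adenosine outside cells is made in steps. ENTPD1 (CD39) and ENPP1 cut ATP and ADP towards AMP, and CD73 removes the last phosphate. Adenosine is then sensed by G protein-coupled receptors, of which the product of ADORA1 lowers and those of ADORA2A and ADORA2B raise cyclic AMP. It is taken up by the nucleoside transporter encoded by SLC29A1, deaminated by ADA, which DPP4 (CD26) holds on the surface of human cells, or phosphorylated back to AMP by ADK. CD73 on tumour cells is known for producing adenosine that restrains immune cells.

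The 6 libraries held between 13883380 and 29479453 counts. MTSS1 itself followed the labels, with 550, 544 and 568 CPM (read counts scaled to library size with TMM normalisation) in overexpressing libraries, against 24.2, 18.0 and 24.3 CPM in wild type ones, and plasmid and endogenous transcripts cannot be told apart in these counts. Overexpressing replicate 1 and wild type replicate 1 stood apart from the other 4 libraries on the first principal component (34.8% of the variance). Of 5 epithelial markers, KRT8 and KRT18 exceeded 5 CPM, and their list summed to between 254 and 466 CPM in overexpressing libraries and between 569 and 850 CPM in wild type libraries. Of 4 lung adenocarcinoma markers none reached 5 CPM in any library, NKX2-1 had at most 2.92 CPM and SFTPB was at 0 throughout. The summed levels of 5 leukocyte markers (1.25 to 2.81 CPM in overexpressing and 2.06 to 3.14 CPM in wild type libraries) and 3 endothelial markers (0.50 to 0.680 CPM in overexpressing and 0.689 to 2.36 CPM in wild type libraries) were low. So were those of 5 fibroblast markers (3.40 to 6.57 CPM in overexpressing and 3.13 to 4.56 CPM in wild type libraries). CDH5 had 3 counts over all libraries and CD3E 7.

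NT5E (ENSG00000135318) lies on the plus strand of chromosome 6 from 85449584 to 85495791 (GRCh38, GENCODE 29). It has 5 annotated transcripts with up to 9 exons, and no other annotated gene overlaps it. The promoter window of RefSeq (GRCh38.p14, chr6:85449833-85450132, plus strand, 250 bases before to 50 after the start) lies inside the GENCODE gene, whose start is farther upstream, and is shown because NT5E had the log2 fold change farthest from 0 among the 7 members with enough counts for the fit. Capitals mark every match to 3 of the 5 motifs searched on both strands. These are GGGCGG, the GC box bound by Sp1-type factors (here as its reverse complement), TGACG, the half-site of the cyclic AMP response element, and GCGTG, a core bound by hypoxia-inducible factors (also as its reverse complement).

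NT5E promoter: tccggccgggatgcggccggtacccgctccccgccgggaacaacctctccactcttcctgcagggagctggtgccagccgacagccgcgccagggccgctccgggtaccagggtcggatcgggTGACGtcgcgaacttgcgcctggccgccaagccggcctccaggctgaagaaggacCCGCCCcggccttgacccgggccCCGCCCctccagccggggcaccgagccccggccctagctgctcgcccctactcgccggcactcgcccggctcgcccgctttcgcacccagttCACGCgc

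The window held 2 GC boxes, 1 TGACG and 1 GCGTG, and the marked matches do not overlap each other. Such matches are common: among 35116 promoter windows of this length, 45.0% held at least 1 GC box and 26.7% at least 2, 24.6% a TGACG and 36.5% a GCGTG. The other hypoxia core, ACGTG (21.4% of windows), and the NF-κB consensus motif (11.3% of windows) had no match in it. The window was 75% G and C, a share reached by 9.62% of all windows. These matches describe letters only, and binding was not measured.

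NT5E transcripts were less abundant in MTSS1-overexpressing cells. The values of NT5E were 723, 712 and 764 CPM in overexpressing libraries, against 1260, 1800 and 1381 CPM in wild type ones. The 3 overexpressing libraries lay close together and all below the wild type libraries, of which replicate 2 was the highest. The means were 733 ± 27.3 CPM in overexpressing and 1481 ± 283 CPM in wild type cells (SD, n = 3 each), so that 49.5% of the wild type level was present. The fitted log2 fold change of overexpressing over wild type was -1.01 (SE 0.13). Of the epithelial markers, KRT8 was also lower, with 30.3 to 68.8 CPM in overexpressing and 136 to 212 CPM in wild type libraries. So was KRT18, with 223 to 396 CPM in overexpressing and 433 to 638 CPM in wild type libraries. EPCAM went the other way, with 0.807 to 0.955 CPM in overexpressing and 0.397 to 0.638 CPM in wild type libraries. CDH1 and KRT19 had at most 0.160 and 0.0734 CPM in any library. The part of these marker differences in the NT5E difference was not tested. In bulk RNA, fewer cells with the transcript and less transcript per cell cannot be told apart.

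**Figure D1:**
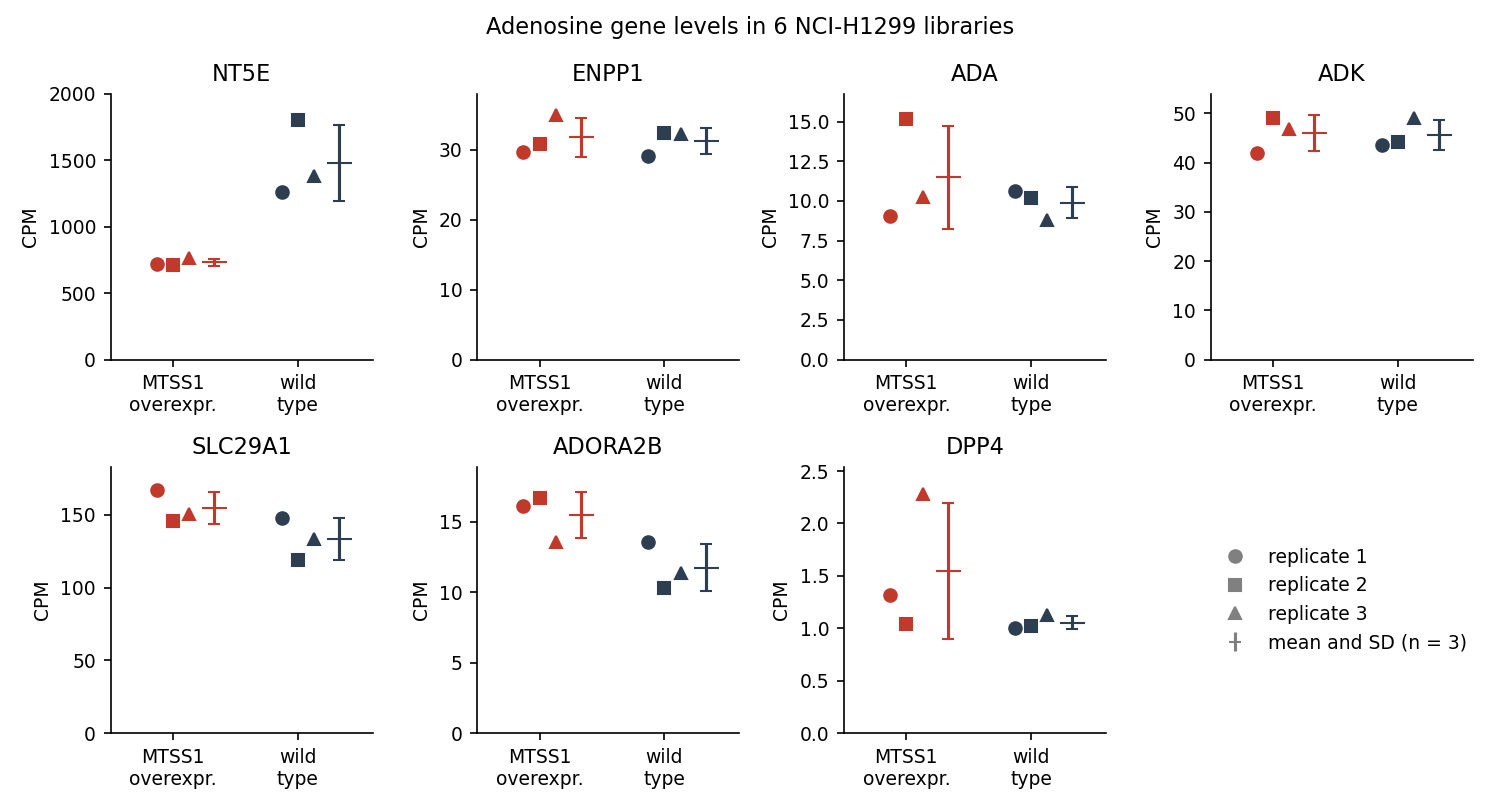
Level in CPM (vertical axis of each panel, from 0) of the 7 adenosine genes with enough counts, in 3 MTSS1-overexpressing libraries (red, left) and 3 wild type libraries (dark, right). Symbols are replicates and bars the mean with SD; the NT5E points of the overexpressing libraries (712 to 764 CPM) lie below all wild type points (1260 to 1800 CPM), while most other panels overlap.

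The coefficient of variation of NT5E was 3.72% in overexpressing and 19.1% in wild type libraries (n = 3 each). With so few libraries the spreads are a description, and their difference was not tested. Titles of the libraries hold numbers that form 3 neighbouring pairs of an overexpressing and a wild type library, here given the same replicate number. Within these pairs the log2 ratio of overexpressing to wild type NT5E was -0.80, -1.34 and -0.85. The pair with the wild type library of 1800 CPM gave the ratio farthest from 0. Without that wild type library the fitted log2 fold change was -0.85, and it was -1.11 without the pair that stood apart on the first component.

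NT5E was among the most abundant transcripts of these cells in both groups. It ranked 121st, 106th and 109th by CPM among 16091 tested genes in the overexpressing libraries, and 47th, 31st and 42nd in the wild type libraries. Its reads made up between 0.0709% and 0.0756% of all counts in overexpressing libraries and between 0.125% and 0.185% in wild type libraries. Above 1000 CPM on average, a limit chosen with the values known, lay 66 genes, and 0 of them had a lower log2 fold change. The next lowest was that of HMGA1, a chromatin architecture gene, at -0.56, with 1536 CPM in overexpressing and 2257 CPM in wild type cells. NT5E itself passed this limit only through its wild type level, with 733 CPM in overexpressing and 1481 CPM in wild type cells. This ranking also uses the contrast that the list was selected on, so nothing is read from it. At lower levels larger differences were seen, and 128 genes that passed the test of all genes had a lower log2 fold change than NT5E.

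**Figure D2:**
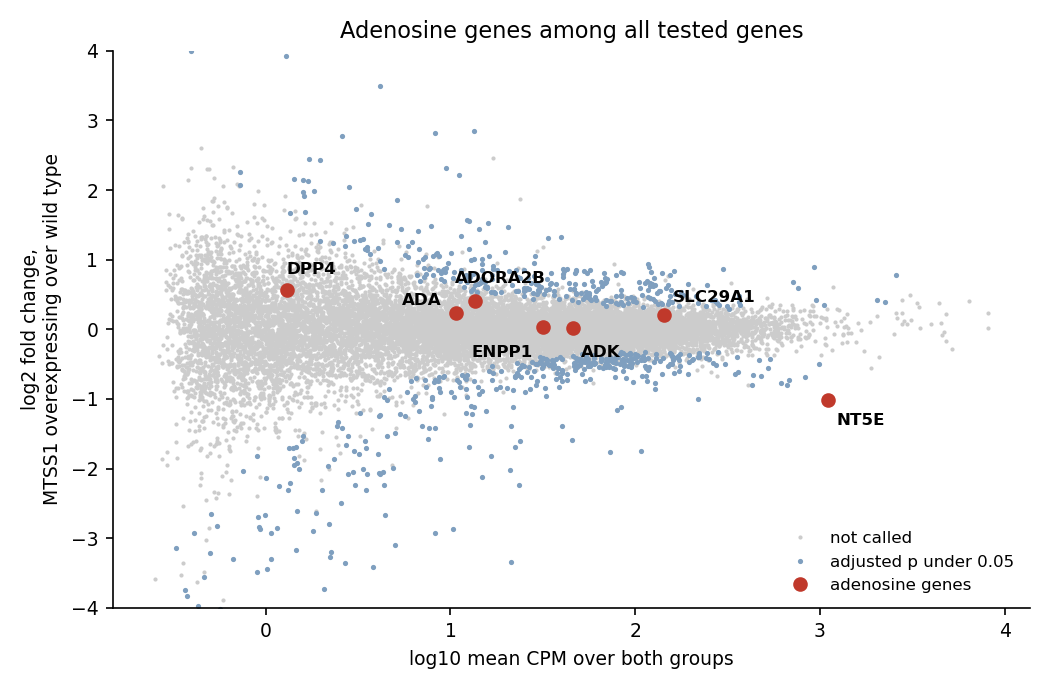
Log2 fold change of MTSS1-overexpressing over wild type cells (vertical) against log10 of the mean CPM (horizontal) for all tested genes, with genes of adjusted p under 0.05 in blue and the adenosine genes in red; 19 genes lie beyond 4 on the vertical axis. NT5E sits alone at the lower right at -1.01, and the other 6 adenosine genes lie between 0.01 and 0.56.

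Genes around NT5E were also somewhat lower. Of the 50 nearest tested genes, which span 11 Mb of chromosome 6, 39 had a log2 fold change below 0, with a median of -0.22 against 0.0046 over all tested genes. Of these neighbours 3 passed the test over all genes, each of them lower (edgeR's quasi-likelihood test, Benjamini-Hochberg adjusted p under 0.05). The nearest of the 3 is SNX14, an endosomal sorting nexin gene, whose midpoint lies 77.1 kb from that of NT5E. SNX14 fell to 139 ± 11.8 CPM in overexpressing cells, against 186 ± 18.6 CPM in wild type cells (SD, n = 3; log2 fold change -0.42, edgeR adjusted p = 0.0497). TPBG averaged 58.3 CPM in overexpressing and 81.4 CPM in wild type cells, and LYRM2 63.7 CPM in overexpressing and 88.1 CPM in wild type cells. Taken relative to the median of its neighbours, NT5E had a log2 fold change of -0.79. Of the neighbours, 2 had a lower log2 fold change than NT5E, and both averaged under 1 CPM in each group. Lower values were not confined to these 50 genes. Medians of the 50 neighbours were also below 0 farther along chromosome 6. They were -0.27 for UFL1 (chr6:96521595-96555276), -0.21 for ENPP1 (chr6:131808016-131895155) and -0.18 for PSMB1 (chr6:170535117-170553341). Around SLC29A1 (chr6:44219505-44234151) the median was -0.05. The part of this broader shift in the NT5E difference was not tested.

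**Figure D3:**
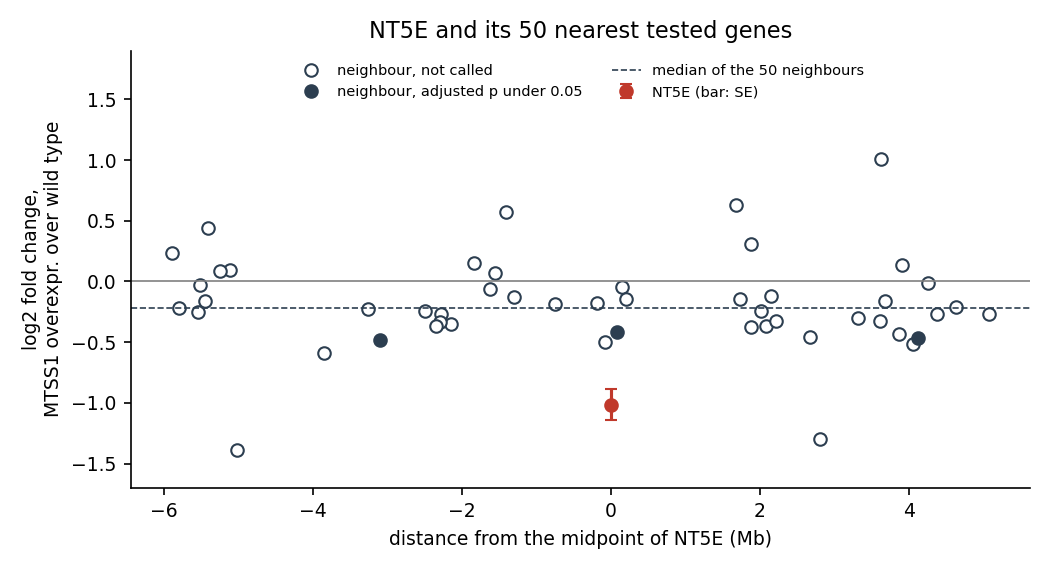
Log2 fold change of MTSS1-overexpressing over wild type cells (vertical) for NT5E (red, bar SE) and its 50 nearest tested genes (circles, filled where adjusted p is under 0.05), by distance between gene midpoints in Mb (horizontal). The dashed line is the neighbours' median of -0.22, and NT5E lies below it at -1.01.

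Of the 10 adenosine genes, 7 had enough counts to enter the fit over all genes and 3 did not. The fit called 1 of the 7 lower, NT5E, beside 2.45% of all tested genes called lower, 1.82% called higher and 4.28% called in either direction. Since the list was selected on this contrast, that count is no test of the members and nothing is read from it. The CPM values of the groups did not overlap for 2 of the 7, NT5E and ADORA2B, against 25.5% of all tested genes. The median log2 fold change of the 7 was 0.21. With the neighbouring title numbers as a block, the count was 3 of the 7 (NT5E, SLC29A1 and ADORA2B), beside 22.7% of all tested genes, and the same limit holds for it.

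Upstream of CD73, ENPP1 gave like values in both groups and ENTPD1 had few counts. ENTPD1 (chr10:95711779-95869695) had 0, 9 and 5 counts in the overexpressing libraries and 4, 6 and 2 counts in the wild type libraries. Its pooled counts of 14 and 12 gave a ratio of 1.37 (exact 95% interval 0.587 to 3.24, which covers counting error only), and an antisense gene, ENTPD1-AS1, overlaps it. ENPP1 (chr6:131808016-131895155), which releases AMP and pyrophosphate from ATP and lies on the same chromosome as NT5E, was well covered. It had 29.7, 30.8 and 34.9 CPM in overexpressing libraries and 29.1, 32.4 and 32.2 CPM in wild type libraries. The groups overlapped (log2 fold change 0.03, SE 0.11), although the 50 neighbours of ENPP1 had a median of -0.21. Annotated pseudogenes and an antisense gene overlap ENPP1, so a few of its reads may be uncertain.

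The genes that remove adenosine gave small differences. SLC29A1 (chr6:44219505-44234151), encoding the equilibrative nucleoside transporter ENT1, had 167, 146 and 151 CPM in overexpressing libraries and 148, 119 and 133 CPM in wild type libraries. Its lowest overexpressing library lay just under its highest wild type library, and the log2 fold change was 0.21 (SE 0.10). Within the neighbouring pairs SLC29A1 was higher in the overexpressing library each time, with log2 ratios of 0.17, 0.29 and 0.18.

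ADK (chr10:74151185-74709303), which phosphorylates adenosine inside the cell, had 42.0, 49.1 and 46.9 CPM in overexpressing libraries and 43.5, 44.2 and 49.1 CPM in wild type libraries. The ADK groups overlapped throughout, with a log2 fold change of 0.01 (SE 0.10) and a median of 0.01 among its neighbours on chromosome 10. Other annotated genes overlap ADK on both strands, so a few of its reads may be uncertain. ADA (chr20:44619522-44652233), which deaminates adenosine to inosine, had 9.03, 15.2 and 10.2 CPM in overexpressing libraries and 10.7, 10.2 and 8.78 CPM in wild type libraries. Overexpressing replicate 2 alone was high, and the log2 fold change of 0.23 (SE 0.20) was -0.03 without it. ADA lies on the minus strand and overlaps PKIG on the plus strand, and no source used here gives the strand setting of the counting, so reads of the shared stretch are uncertain. DPP4 (chr2:161992241-162074542), the surface anchor of ADA, was scarce, with 18, 27 and 57 counts in overexpressing libraries and 19, 31 and 30 counts in wild type libraries, and an antisense gene overlaps it. Its high value in overexpressing replicate 3 (2.28 CPM, against 1.32 and 1.04 CPM in the other overexpressing libraries and 1.01 to 1.13 CPM in wild type) set most of its log2 fold change of 0.56 (SE 0.39), which was 0.15 without that library.

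Among the adenosine receptor genes, ADORA2B was the main one detected. ADORA2B (chr17:15944917-15975746) had 16.2, 16.7 and 13.61 CPM in overexpressing libraries and 13.58, 10.3 and 11.4 CPM in wild type libraries. The groups did not overlap, but the lowest overexpressing and the highest wild type library differed only in the second decimal. The log2 fold change was 0.40 (SE 0.15), and 0.18 relative to its 50 neighbours on chromosome 17, whose median was 0.22. ADORA1 (chr1:203090654-203167405) had 0, 1 and 1 counts in overexpressing libraries and 7, 1 and 19 counts in wild type libraries. Most of its wild type counts came from replicates 1 and 3, while replicate 2 had as few as the overexpressing libraries, so the ratio of pooled counts of 0.0868 (exact 95% interval 0.0100 to 0.345) rests on those libraries. The genes AC105940.1 and AC105940.2 overlap ADORA1 on the other strand, and the strand setting is not given, so its counts are uncertain. ADORA2A (chr22:24417879-24442360) had 2, 0 and 5 counts in overexpressing libraries and 2, 0 and 1 counts in wild type libraries, a ratio of 2.73 (exact 95% interval 0.624 to 16.4). The readthrough gene SPECC1L-ADORA2A and the antisense gene ADORA2A-AS1 overlap ADORA2A, so its counts are uncertain. No identifier of the table matched ADORA3, which was not analysed here.

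**Figure D4:**
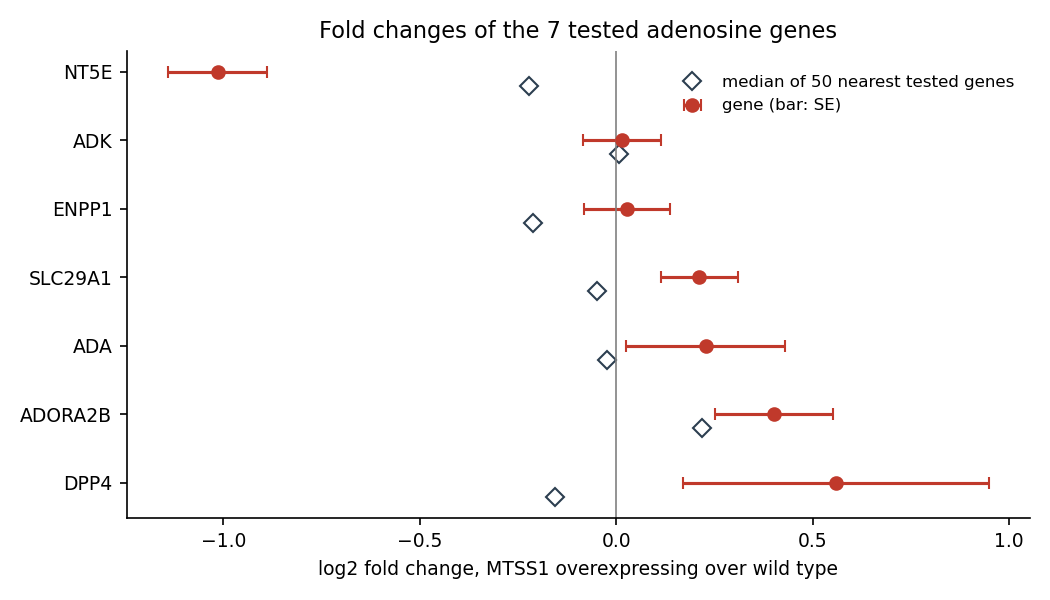
Log2 fold change of MTSS1-overexpressing over wild type cells (horizontal, bars SE) of the 7 tested adenosine genes, with the median of each gene's 50 nearest tested genes as open diamonds. NT5E lies at -1.01, far to the left of the others, and ADORA2B (0.40) and its neighbours (0.22) both lie right of 0.

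Levels of different genes were compared per kilobase of annotated exon. In overexpressing cells NT5E came first with 162 ± 6.02 CPM per kb, followed by SLC29A1 with 35.0 ± 2.50, ADK with 14.4 ± 1.14, ADORA2B with 6.07 ± 0.65, ADA with 4.03 ± 1.14, ENPP1 with 3.19 ± 0.28 and DPP4 with 0.309 ± 0.130 CPM per kb (SD, n = 3). In wild type cells the order was the same, with 327 ± 62.5 CPM per kb for NT5E, 30.3 ± 3.30 for SLC29A1, 14.3 ± 0.948 for ADK, 4.61 ± 0.65 for ADORA2B, 3.46 ± 0.34 for ADA, 3.14 ± 0.19 for ENPP1 and 0.210 ± 0.013 for DPP4. The ranges of ADA and ENPP1 overlapped in both groups, so these 2 neighbours in the order were not separated by their spread. All other neighbours in this order had ranges that did not overlap, ADORA2B and ADA in overexpressing libraries only narrowly (lowest 5.33 and highest 5.32 CPM per kb). ENTPD1, ADORA1 and ADORA2A had at most 0.0496, 0.170 and 0.0477 CPM per kb in any library, in that order. NT5E was thus the most abundant of the 10 transcripts per length in both groups.

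Several other genes followed the pattern of NT5E over the 6 libraries. The likeness was measured as Pearson's r of log2 CPM (pseudocount 0.5) over 6 libraries, among 10809 named genes that averaged 5 CPM or more. The 5 highest values were those of IFT46 (r = 0.999), a gene of intraflagellar transport, the Wnt receptor gene FZD6 (0.998), the extracellular matrix gene THSD4 (0.998) and the zinc finger genes ZNF677 (0.997) and ZNF436 (0.996). THSD4 had 12.04, 10.9 and 12.4 CPM in overexpressing libraries and 25.9, 39.2 and 27.3 CPM in wild type libraries, with wild type replicate 2 highest, as for NT5E. With 6 libraries in 2 groups, such values are a description: 209 of these genes had an r over 0.95.

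Beyond these members, 83 further genes of adenosine and nucleotide handling were listed by their known roles and not by how they moved, although earlier results of these data were known when the lists were made. Of these, 82 were found in the table, 49 were tested and 10 had no count in any library. In all, 1 gene rose and 1 fell, and 47 did not pass the test of edgeR adjusted over all genes, or 2 of 49 against 4.28% of all tested genes. The median log2 fold change of the 49 was 0.08. DESeq2 also called 1 higher and 1 lower, beside 525 higher and 663 lower of 16190 genes.

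Both calls were among the 16 tested enzymes of intracellular adenosine and AMP. HPRT1, the purine salvage enzyme that rebuilds IMP and GMP, had 139, 128 and 150 CPM in overexpressing libraries and 104, 80.4 and 99.4 CPM in wild type libraries. The groups did not overlap, as for 25.5% of all tested genes, and HPRT1 rose by 0.56 on the log2 scale (SE 0.11, edgeR adjusted p = 0.025). AMPD3, an AMP deaminase that turns AMP into IMP, had 6, 23 and 12 counts in overexpressing libraries and 46, 67 and 54 counts in wild type libraries. It fell by 1.84 on the log2 scale (SE 0.37, edgeR adjusted p = 0.028). Neither call was firm. With 1 library left out, HPRT1 passed only without wild type replicate 1 (highest edgeR adjusted p 0.0935) and AMPD3 only without overexpressing replicate 2 (highest 0.103). HPRT1 lies on the X chromosome, its 50 neighbours had a median of 0.22, and relative to them its log2 fold change of 0.34 did not pass (edgeR adjusted p = 0.178). AMPD3 passed relative to its neighbours (log2 fold change -1.90, edgeR adjusted p = 0.0377). Both genes passed with DESeq2 (adjusted p = 0.00022 for HPRT1 and 0.0057 for AMPD3). They also passed with the neighbouring title numbers as a block (edgeR adjusted p = 0.00010 for HPRT1 and 0.0039 for AMPD3).

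**Figure D5:**
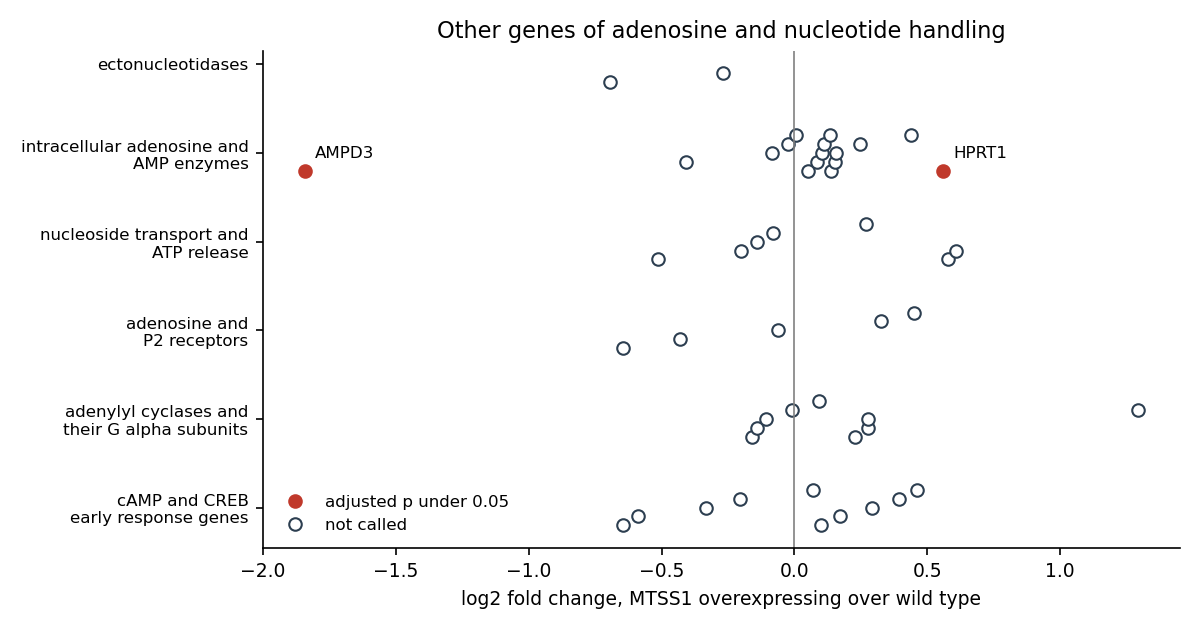
Log2 fold change of MTSS1-overexpressing over wild type cells (horizontal) of the 49 tested genes of the wider lists, 1 row of points per list, filled red where adjusted p is under 0.05. AMPD3 (-1.84) and HPRT1 (0.56) are the filled points, and the point at the far right, which did not pass, is ADCY1 (1.29).

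The remaining lists held no call, beside 4.28% of all tested genes called. With 2 to 10 tested genes per list, 0 calls lie near that share, so nothing is read from them. For the unadjusted p no share over all genes was taken, so those counts are not read either. Of 11 other ectonucleotidase genes only ENTPD8 and BST1 had enough counts, both at most 1.09 CPM in any library. BST1, which cleaves NAD, differed by -0.70 on the log2 scale (edgeR adjusted p = 0.384) and ENTPD8 by -0.27 (edgeR adjusted p = 0.857). Of the 2, 0 reached an unadjusted p under 0.05 in edgeR, and DESeq2 called 0. The untested ectonucleotidases had at most 38 counts over all 6 libraries. NT5E and ENPP1 were thus the only ectonucleotidase genes above 1.09 CPM among the members and this list.

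Among nucleoside transport and ATP release genes, 0 of 7 passed, beside 4.28% of all tested genes (1 at an unadjusted p under 0.05, DESeq2 0). The transporter gene SLC29A4 had 4.63, 5.07 and 4.16 CPM in overexpressing libraries and 3.39, 3.01 and 2.89 CPM in wild type libraries (log2 fold change 0.58, edgeR adjusted p = 0.158). Its groups did not overlap, as for 25.5% of all tested genes. SLC28A3, a concentrative nucleoside transporter, averaged 1.59 CPM in overexpressing and 1.04 CPM in wild type cells (log2 fold change 0.61, edgeR adjusted p = 0.339). Of the receptors for ATP and other nucleotides, 0 of 5 passed, beside the same share (1 at an unadjusted p under 0.05, DESeq2 0). P2RY11, a receptor for ATP that shares reads with the readthrough gene PPAN-P2RY11 where they cannot be told apart, had 3.67, 3.38 and 3.92 CPM in overexpressing and 4.61, 5.62 and 6.91 CPM in wild type libraries (log2 fold change -0.65, edgeR adjusted p = 0.129, and 0.0249 with the block). The ATP-gated channel gene P2RX4 averaged 10.3 CPM in overexpressing and 8.27 CPM in wild type cells (log2 fold change 0.33, edgeR adjusted p = 0.289).

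The step behind the adenosine receptors, adenylyl cyclases and their G protein alpha subunits, gave 0 calls in 9 tested genes (1 at an unadjusted p under 0.05, DESeq2 0). The share over all tested genes was 4.28%. GNAS, the stimulatory subunit used by the ADORA2B receptor, stood at 833 ± 2.67 CPM in overexpressing and 897 ± 101 CPM in wild type cells (SD, n = 3; log2 fold change -0.11, edgeR adjusted p = 0.595), and is named after its values were seen. ADCY3, a cyclase gene, averaged 85.8 CPM in overexpressing and 70.7 CPM in wild type cells (log2 fold change 0.28, edgeR adjusted p = 0.135, and 0.00792 with the block). ADCY1 had 38 and 18 counts over the overexpressing and wild type libraries (log2 fold change 1.29, SE 0.65, edgeR adjusted p = 0.315).

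Early response genes of cyclic AMP and CREB gave 0 calls in 10 tested genes (1 at an unadjusted p under 0.05, DESeq2 0). Beside that count, 4.28% of all tested genes were called. Neither cyclic AMP nor receptor activity was measured, so these counts are not a readout of the receptor and cyclase step. CREM, a CREB family factor that cyclic AMP induces, averaged 21.0 CPM in overexpressing and 16.0 CPM in wild type cells (log2 fold change 0.39, edgeR adjusted p = 0.193). The clock gene PER1 averaged 30.0 CPM in overexpressing and 24.5 CPM in wild type cells (log2 fold change 0.29, edgeR adjusted p = 0.280). With the block, CREM, PER1 and the nuclear receptor gene NR4A1 passed, all upwards (edgeR adjusted p = 0.0491, 0.0243 and 0.0301), among 22.7% of all tested genes. Over the 10 genes the log2 fold change had a median of 0.09, and the directions were mixed. It was below 0 for NR4A3 (-0.64), PDE4B (-0.59), RGS2 (-0.33) and NR4A2 (-0.20). It was above 0 for NR4A1, CREM, PER1, PDE4D, FOSB and DUSP1. SIK1 was at 0 in all libraries, but it has a near-identical copy in the genome, so its value is only a listed one.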

How the data were processed

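The deposited table holds raw read counts per Ensembl gene, 1 column per library, 3 MTSS1-overexpressing and 3 wild type. Per the labels' protocols, poly(A) RNA was made into directional libraries and sequenced as single reads. Per the submitters' processing notes, bcl2fastq, HISAT2 2.1.0, HTSeq and GRCh38 were used; annotation release and strand setting: not given in the sources used here. The labels do not tell whether replicates were separate cultures, and the p-values then reflect the spread among 6 libraries, which may be technical.

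Symbols were found for 56591 of 64253 identifiers, and positions and exon lengths came from GENCODE 29. The groups were compared using edgeR 4.0.16 under R 4.3.3 (TMM, filterByExpr, quasi-likelihood test, two-sided, Benjamini-Hochberg adjustment over 16091 genes, threshold 0.05); of these, 293 genes were higher and 395 lower. SEs came from the fitted model. DESeq2 1.42.0 was an alternative. No 2 replicates agreed within sampling noise (chi-square 14.7 to 28.0 times its degrees of freedom). On simulated counts with this layout the fit called 75% of genes changed by 1 and 9% of genes changed by 0.5 on the log2 scale. The simulation gave all genes the same dispersion and held no pairs of libraries, so these shares need not hold for the data. Intervals cover counting error only.

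The members and lists were chosen with earlier results of these data known. Named were all members, list genes past the threshold (otherwise the 2 per list with the smallest adjusted p) and the 5 genes most like NT5E; any other gene named was picked with its values known. The block uses neighbouring title numbers, which the labels do not tie to a shared day. Deviations from the group means correlated at 0.66, 0.34 and 0.38 within these pairs and between -0.40 and 0.10 otherwise. The other alternatives were DESeq2 size factors, no filter on low counts, an offset by the median of the 50 neighbouring genes, leaving out each library, and leaving out both libraries numbered replicate 1.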

Additional observations from a re-analysis of the deposited data

How the results depend on the processing

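The log2 fold change of NT5E, which belongs to the contrast the members were selected on and is given as a value without a test, lay between -1.12 and -0.79 over the 12 alternatives, with -0.79 under the neighbour offset, where its neighbours' median is subtracted. With 1 library left out the value lay between -1.12 and -0.85. With the replicate block the log2 fold change was -0.999 for NT5E, 0.22 for SLC29A1 and 0.41 for ADORA2B.

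The number of changed genes was 525 higher and 663 lower with DESeq2, 679 and 810 without a filter on low counts, 1716 and 1935 with the replicate block and 123 and 214 with the neighbour offset. With 1 library left out, it lay between 59 and 148 higher and between 86 and 198 lower. Without both libraries numbered replicate 1, it was 56 and 76. Fits with fewer libraries have fewer degrees of freedom; otherwise the cause was not tested.

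Of the 49 tested genes of the wider lists, 5 were higher and 3 lower with the replicate block, beside 22.7% of all tested genes called. Without a filter on low counts it was 1 and 2 of 72, beside 679 and 810 of 28676 genes. With the neighbour offset it was 0 and 1 of 49 (edgeR, 6 at an unadjusted p under 0.05), beside 123 and 214 of 16091 genes. Without both libraries numbered replicate 1 it was 0 and 0 of 48 (edgeR, 6 at an unadjusted p under 0.05), beside 56 and 76 of 16359 genes. With 1 library left out there were 0 to 1 higher and 0 to 1 lower of 49 to 51 tested (edgeR, 3 to 10 genes at an unadjusted p under 0.05). For the unadjusted p no share over all genes was taken, so nothing is read from those counts. The block also called AMPD2, which had 58.6 ± 11.99 CPM in overexpressing and 77.5 ± 9.50 CPM in wild type cells (edgeR adjusted p = 0.0012 with the block and 0.161 without it). Genes with few counts, ENTPD1, ADORA1 and ADORA2A among them, are limited by depth.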

Other observations

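FOSB and DUSP1, early response genes of the cyclic AMP and CREB list varied more between libraries of 1 group than between the groups. FOSB, a subunit of the AP-1 transcription factor, had 114, 21.1 and 109 CPM in overexpressing libraries and 110, 15.2 and 102 CPM in wild type libraries. DUSP1, a phosphatase of MAP kinases, had 51.5, 26.7 and 53.1 CPM in overexpressing libraries and 48.4, 23.4 and 53.1 CPM in wild type libraries. Replicate 2 was the lowest library of both groups for both genes, and these 2 libraries have neighbouring title numbers. Both genes were chosen after their values were seen, and neither passed the test between the groups (edgeR adjusted p = 0.958 for FOSB and 0.935 for DUSP1). NR4A1 of the same list did not show this order, with 18.1, 17.3 and 13.6 CPM in overexpressing and 16.4, 8.96 and 10.4 CPM in wild type libraries.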
